A study of Mus musculus with 12 samples.

Results

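Radial glia are the neural stem cells of the embryonic cortex, and 10 genes used to recognise them were followed by symbol in a table of 34102 mouse genes: Pax6, Sox1, Sox2, Sox3, Sox9, Nes, Vim, Fabp7, Slc1a3 and Prom1. All 10 were in the table and all passed the filter on low counts in every comparison. Total RNA was sequenced in 12 libraries, 3 in each of 4 groups, all from C57BL/6 mice. Cortex labelled cKO had the genotype Srsf10 flox/flox Nestin-Cre+, and its controls were Srsf10 flox/flox Nestin-Cre-, so both carried the floxed alleles, and Cre itself and the deletion it makes cannot be told apart. Cultured neural progenitor cells (NPC), primary cells from cortex grown with bFGF and EGF, were labelled SRSF10 knockdown or WT. RNA was taken 72 h after lentiviral infection at a multiplicity of 30 by the protocol given for both NPC groups, and the virus received by the WT cells is not described. The sources used here give neither the age of the mice nor the animal or culture behind each library, so p-values measure the spread between these libraries, which may be technical. Srsf10 encodes an SR protein, a class of RNA-binding factors that steer splicing, and Nestin-Cre is a transgene that expresses Cre recombinase from Nestin regulatory DNA.

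Radial glia line the ventricle, divide there to renew themselves and give rise to neurons, and guide newborn neurons along their long fibres. Pax6 is a paired-box and homeodomain transcription factor that drives cortical neurogenesis. Sox1, Sox2 and Sox3 form the SoxB1 group of SRY-box transcription factors, which hold progenitors undifferentiated, and Sox9 is a SoxE factor needed for stem cell maintenance and gliogenesis. Nestin (Nes) and vimentin (Vim) are intermediate filament proteins that assemble together in the radial fibre. Fabp7 encodes the brain lipid-binding protein, Slc1a3 the glutamate and aspartate transporter GLAST, and Prom1 the membrane glycoprotein prominin-1 (CD133) of apical protrusions.

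The libraries held 26074094 to 36713205 counts, at least 32560159 in cortex and at most 30608918 in NPC. Srsf10 itself was at 211 ± 20.8 CPM (counts-per-million, scaled by library size) in cKO cortex against 207 ± 11.5 CPM in control cortex, and at 226 ± 11.9 CPM in knockdown NPC against 233 ± 13.7 CPM in control NPC (SD, n = 3 each), so the gene count did not show the labelled loss and each direction below rests on the labels. The log2 fold changes of Srsf10 were 0.033 in cortex (95% interval -0.15 to 0.21) and -0.047 in NPC (-0.21 to 0.12). Choroid plexus transcripts set 2 cortex libraries apart: Ttr stood at 1082 CPM in cKO replicate 3 and at 1194 CPM in control replicate 2, while the remaining 4 cortex libraries held 2.35 to 100.3 CPM. Meningeal fibroblast markers, 5 in number, summed to 24.8 CPM in control cortex replicate 2 and 127 to 254 CPM in the other cortex libraries. Sex, read from Ddx3y, was mixed within each group.

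In NPC compared as same-numbered pairs, 5 of the 10 genes passed an adjusted p of 0.05 by edgeR, beside 24.7% of all genes tested. Those 5 moved in opposite directions. Sox2, Sox9 and Sox3 fell (log2 fold changes of -0.50, -0.42 and -0.23) and Nes and Prom1 rose (0.21 and 0.41), while Pax6, Sox1, Vim, Fabp7 and Slc1a3 did not pass the test. Without pairs, the main analysis, 0 of the 10 passed in NPC by edgeR, beside 1.89% of all genes tested. In cortex labelled cKO, also without pairs, 0 of the 10 passed, beside 0.171% of all genes tested. The difference between the NPC and the cortex effect passed for 0 of the 10, beside 1.46% of all genes tested. Sox2 carried the largest absolute change among the 10 in paired NPC, a fold of 0.705 (95% interval 0.642 to 0.776) relative to control NPC.

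Letters in the transcripts were compared because 2 hexamers, ACCGAC and CCGACT, had been singled out earlier on these same NPC data in the 3′ untranslated regions (UTRs) of genes that were lower. The hexamers share the letters CCGAC and were searched on the transcript strand of GENCODE transcripts with a 3′ UTR of at least 50 bases. Of the 10 genes, Sox2 and Sox1 held CCGACT, once each, and none held ACCGAC. The 2 sites are printed 5′ to 3′ with 12 bases on either side and the hexamer in capitals, because 1 of the 2 genes fell in paired NPC and the other did not.
Sox2: aaaaccgtgatgCCGACTagaaaactttta
Sox1: agcctccagagcCCGACTttgtaccgaggt
The Sox2 hexamer lies on the plus strand at chr3:34651563-34651568 (mm10), base 188 of a 3′ UTR of 1086 bases. The Sox1 hexamer lies on the plus strand at chr8:12397621-12397626, base 85 of a 3′ UTR of 2590 bases. CCGACT was present in 11.2% of the 12710 searched genes tested in NPC, in 8.88% of the 2140 whose 3′ UTR was within 25% of the length of that of Sox2, and in 15.5% of the 2630 within 25% of that of Sox1. With pairs, genes with CCGACT had a median log2 fold change of -0.069 (quartiles -0.25 and 0.072) and genes without it 0.011 (quartiles -0.12 and 0.16). A lower median of the carriers was favoured in advance by how the hexamers were singled out, so these values are descriptions only. Sox2, at -0.50, was below the lower quartile of the carriers and Sox1, at 0.084, was above the upper one, and Sox9 and Sox3 fell with neither hexamer in their annotated 3′ UTRs.

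Levels of different genes were compared as RPKM, that is CPM per kilobase of exon, and the order differed between culture and tissue. In control NPC, Fabp7 led with 2828 ± 36.7 RPKM, followed by Vim (773 ± 25.1), Nes (305 ± 7.35), Slc1a3 (152 ± 3.61), Sox2 (145 ± 3.68), Sox3 (113 ± 7.93), Sox9 (38.0 ± 6.30), Sox1 (12.5 ± 1.49), Pax6 (2.25 ± 0.134) and Prom1 (0.893 ± 0.419; SD, n = 3 each). The ranges of neighbours in this order did not overlap among the 3 control NPC libraries. In control cortex, Fabp7 again led, with 644 ± 45.2 RPKM, followed by Slc1a3 (39.9 ± 2.54), Sox2 (35.1 ± 6.12), Vim (32.2 ± 4.73), Nes (20.7 ± 0.766), Sox1 (7.88 ± 1.08), Sox9 (6.46 ± 2.09), Prom1 (2.66 ± 0.134), Sox3 (1.90 ± 0.576) and Pax6 (1.79 ± 0.287). Slc1a3 overlapped with Sox2, Sox2 with Vim, Sox1 with Sox9, and Sox3 with Pax6 in control cortex. Pax6 has 26 annotated transcripts and a summed exon length of 11694 bases against 4427 for its longest transcript. Its rank among the 10 in control cortex was 10 by summed exon length and 8 by longest transcript.

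**Figure D1:**
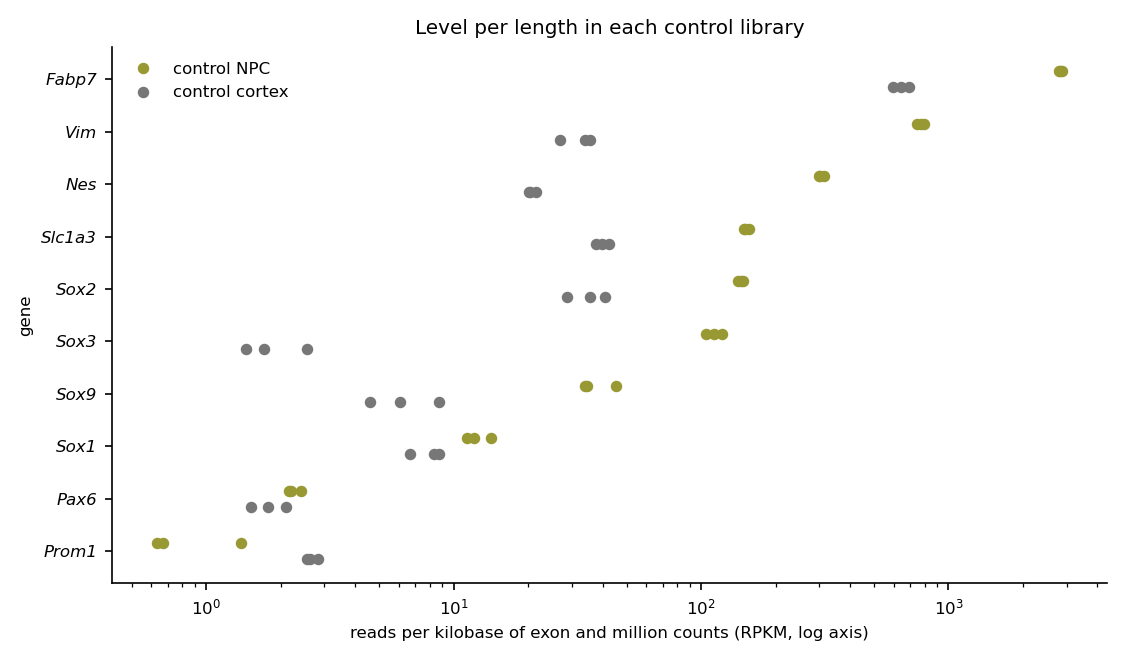
Level of each gene per exon length (RPKM, logarithmic axis) in the 3 control NPC libraries and the 3 control cortex libraries, 1 point per library. Vim, Nes and Sox3 lie far apart between culture and tissue, Pax6 lies close in both, and Prom1 alone is lower in control NPC.

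Control NPC differed from control cortex in 9 of the 10 genes by edgeR, 8 higher and 1 lower, against 79.1% of 16569 genes called in either direction, 38.1% higher and 41% lower. Sox3 had the largest difference, 5.89 (log2, SE 0.19, 95% interval 5.47 to 6.31): it stood at 230 ± 16.0 CPM in control NPC and 3.98 ± 1.22 CPM in control cortex. Vim differed by 4.59 (SE 0.13) and Nes by 3.88 (SE 0.096), Sox9 by 2.56, Fabp7 by 2.13, Sox2 by 2.04, Slc1a3 by 1.93 and Sox1 by 0.67. Prom1 went the other way, with -1.58 (SE 0.32, adjusted p = 0.000501). Pax6 did not pass (0.33, 95% interval -0.065 to 0.72, adjusted p = 0.113). Together the 10 genes took 1.10% to 1.13% of all counts in control NPC and 0.15% to 0.168% in control cortex. Culture, dissection, library making and counting cannot be told apart in this comparison, and in bulk RNA fewer cells of a type and less RNA per cell cannot be told apart either. Markers of other cells went with it: 6 neuronal markers summed to 1011 to 1135 CPM in control NPC and 8492 to 8778 CPM in control cortex, and 5 oligodendrocyte precursor markers to 2809 to 2841 CPM in control NPC and 239 to 254 CPM in control cortex. Neuronal Map2 made up most of the NPC sum, at 976 to 1104 CPM, and none of the 6 neuronal or 5 precursor markers was at 0. Among the precursor markers, Olig2 was at 1040 to 1082 CPM in control NPC and 31.8 to 37.1 CPM in control cortex. Sox10 did not follow the precursor sum, at 2.80 to 10.8 CPM in control NPC and 10.1 to 10.8 CPM in control cortex. Their part in the levels was not tested.

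**Figure D2:**
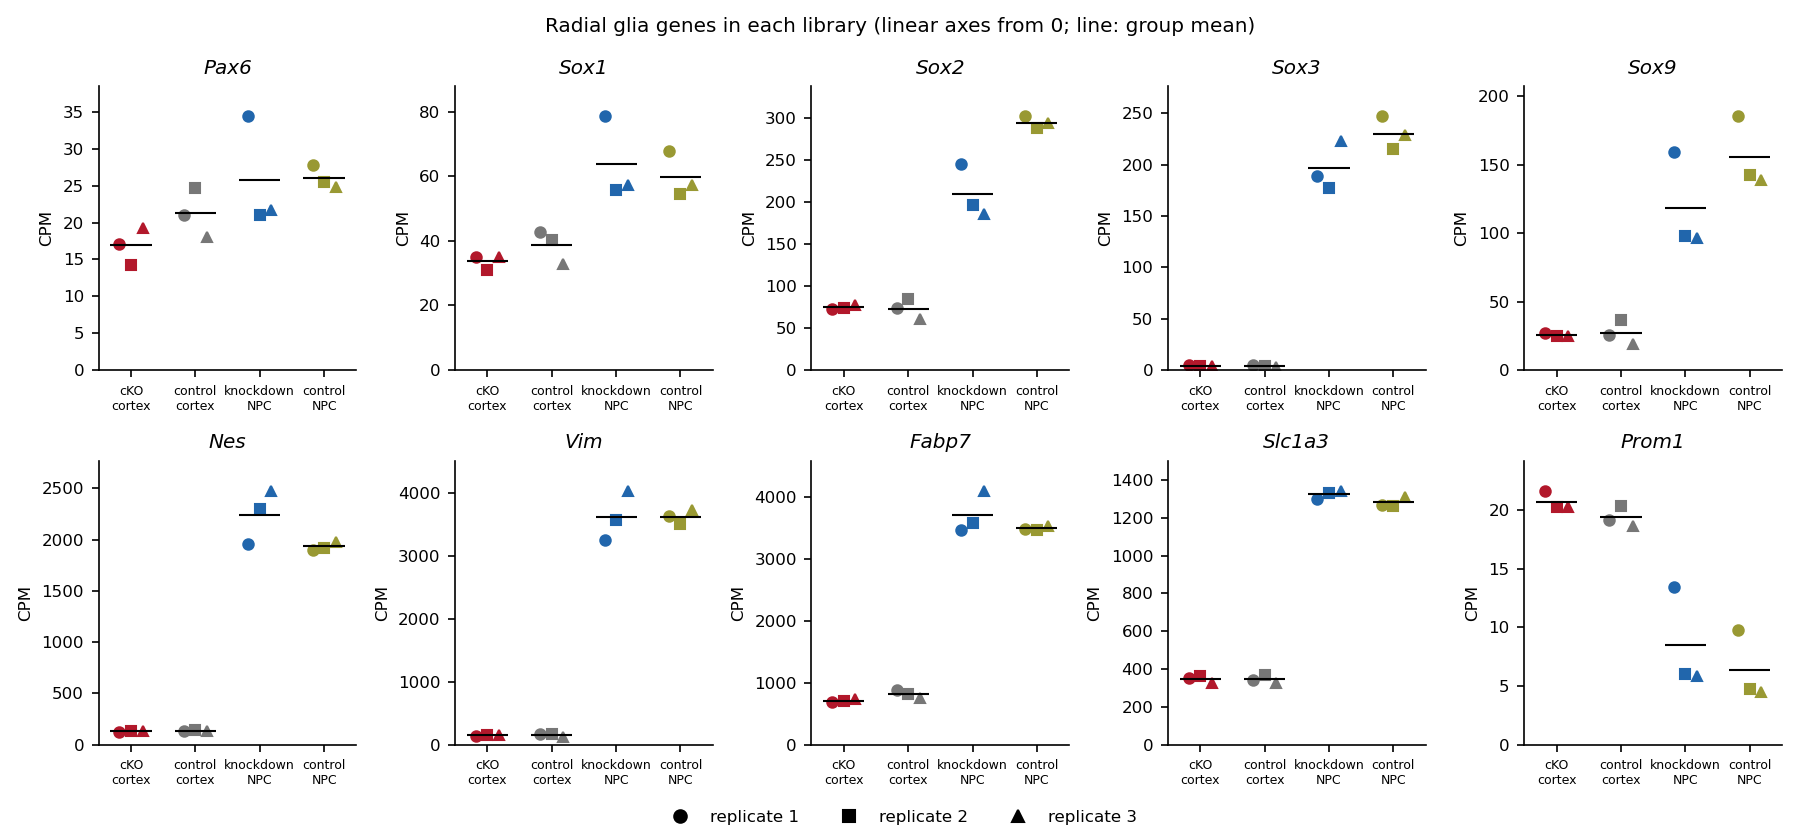
Level in CPM of each of the 10 genes in every library, on linear axes from 0, with cKO before control cortex and knockdown before control NPC; symbols give the replicate number and lines the mean of 3. In NPC, Sox2 lies lower in all 3 knockdown libraries than in any control. Pax6, Sox1, Sox2, Sox9 and Prom1 are highest in replicate 1 of both NPC groups.

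In NPC, Sox2 (ENSMUSG00000074637, chromosome 3, 34650405 to 34652461, plus strand, mm10) was measured at 245, 196 and 186 CPM in knockdown replicates 1, 2 and 3, against 302, 288 and 294 CPM in control replicates 1, 2 and 3. All knockdown values were below all control values, and Sox2 was the only one of the 10 genes whose NPC groups did not overlap, against 23.4% of the 14258 genes tested (12.8% lower). Without pairs Sox2 had a log2 fold change of -0.49 with an SE of 0.11 (95% interval -0.74 to -0.25; adjusted p = 0.0667 by edgeR), outside the threshold of 0.05 on adjusted p. With pairs it was -0.50 (SE 0.063, adjusted p = 8.49e-05), and DESeq2 called the fall without pairs as well (adjusted p = 0.0015). The ratio within pairs was -0.30, -0.55 and -0.66 (log2). Without knockdown replicate 1, Sox2 passed also without pairs (-0.62, adjusted p = 0.00857). Leaving out any other NPC library, Sox2 did not pass without pairs. The adjusted p by edgeR was 0.139 to 0.229 without a control library and 0.253 without knockdown replicate 2.

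Sox2 sits inside an intron of Sox2ot, a long noncoding RNA gene on the same strand with no exon in common, and Sox2ot, named after its values were seen, was higher. It had 1631, 1256 and 1752 counts in knockdown NPC and 1353, 795 and 1402 counts in control NPC. The paired log2 fold change of Sox2ot was 0.41 (SE 0.057, adjusted p = 0.000208), with 0.37, 0.42 and 0.43 in the 3 pairs, and without pairs it did not pass (0.40, adjusted p = 0.393).

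Sox9 (ENSMUSG00000000567, chromosome 11, 112782224 to 112787760, plus strand) was at 160, 98.2 and 96.1 CPM in knockdown NPC and at 185, 142 and 139 CPM in control NPC. The groups overlapped because replicate 1 was high in both, yet each knockdown library was below the control of the same number, by 0.22, 0.53 and 0.53 on the log2 scale. With pairs Sox9 fell by 0.42 (SE 0.064, adjusted p = 0.000361), and without pairs the value was -0.40 with a wide interval (-0.89 to 0.098, adjusted p = 0.366).

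Sox3 (ENSMUSG00000045179, chromosome X, 60891366 to 60893430, minus strand) was at 189, 178 and 223 CPM in knockdown NPC against 247, 215 and 229 CPM in control NPC. The pairs gave -0.39, -0.28 and -0.034, so pair 3, the male pair, hardly differed. The paired log2 fold change was -0.23 (SE 0.063, adjusted p = 0.0163), and without pairs it was -0.23 with an adjusted p of 0.278. Sox1 (ENSMUSG00000096014, chromosome 8, 12395295 to 12400126, plus strand), the third SoxB1 gene, was at 78.6, 55.7 and 57.4 CPM in knockdown NPC and at 67.9, 54.5 and 57.3 CPM in control NPC. Its paired value was 0.084 (95% interval -0.045 to 0.21, adjusted p = 0.347), an interval that leaves out a fall of the size seen for Sox2 or Sox3. Without pairs the Sox1 value was 0.093 (95% interval -0.26 to 0.44, adjusted p = 0.792 by edgeR). That interval leaves out the fall of Sox2 but includes that of Sox3.

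Nes (ENSMUSG00000004891, chromosome 3, 87971078 to 87980451, plus strand) was at 1962, 2300 and 2474 CPM in knockdown NPC and at 1902, 1923 and 1982 CPM in control NPC. Knockdown replicate 1 lay within the control range and the other knockdown libraries above it, with pair ratios of 0.045, 0.26 and 0.32. Nes rose by 0.21 with pairs (log2, SE 0.059, adjusted p = 0.0198) and had the same size without pairs (0.21, adjusted p = 0.287). Its filament partner Vim (ENSMUSG00000026728) was at 3255, 3578 and 4033 CPM in knockdown NPC and at 3637, 3515 and 3728 CPM in control NPC, with values on both sides of the controls. The paired value of Vim was -0.0068 (95% interval -0.13 to 0.12).

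Prom1 (ENSMUSG00000029086, chromosome 5, 43993620 to 44102032, minus strand) had the smallest counts of the 10 genes in NPC, 352, 187 and 161 in knockdown libraries against 273, 125 and 132 in control libraries. In CPM these were 13.5, 6.06 and 5.87 against 9.77, 4.77 and 4.47 in controls, so replicate 1 was the highest in both groups and each knockdown library exceeded its own control. Prom1 rose by 0.41 with pairs (log2, SE 0.12, adjusted p = 0.0233), was not called by DESeq2 with pairs (adjusted p = 0.148), and without pairs its interval ran from -0.57 to 1.40. An exon of the opposite-strand gene model Gm16401 overlaps a Prom1 exon, and the sources used here do not say whether counting used strand. Sox1 also has such an overlap, with the gene model Gm25239 on its own strand.

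Pax6 (ENSMUSG00000027168, chromosome 2, 105668900 to 105697364, plus strand) was at 34.4, 21.1 and 21.6 CPM in knockdown NPC and at 27.8, 25.5 and 24.8 CPM in control NPC. The ratio was above 0 in pair 1 (0.31) and below 0 in pairs 2 and 3 (-0.27 and -0.20), and the paired estimate was -0.047 (95% interval -0.26 to 0.17). Without pair 1, Pax6 passed at -0.24 (adjusted p = 0.0293), in a fit of 4 libraries that called more of all genes than the fit with every pair. Without pair 2 or without pair 3, the Pax6 value was above 0 and did not pass. Fabp7 (ENSMUSG00000019874) was at 3465, 3579 and 4092 CPM in knockdown NPC and at 3478, 3472 and 3535 CPM in control NPC, a paired value of 0.083 (95% interval -0.037 to 0.20). Without pair 1, Fabp7 passed as well (0.13, adjusted p = 0.0282). Slc1a3 (ENSMUSG00000005360) was at 1299, 1331 and 1341 CPM in knockdown NPC and at 1269, 1263 and 1312 CPM in control NPC, a paired value of 0.047 (95% interval -0.057 to 0.15). By SD relative to the mean, Slc1a3 varied least of the radial glia genes in knockdown NPC and Fabp7 in control NPC.

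**Figure D3:**
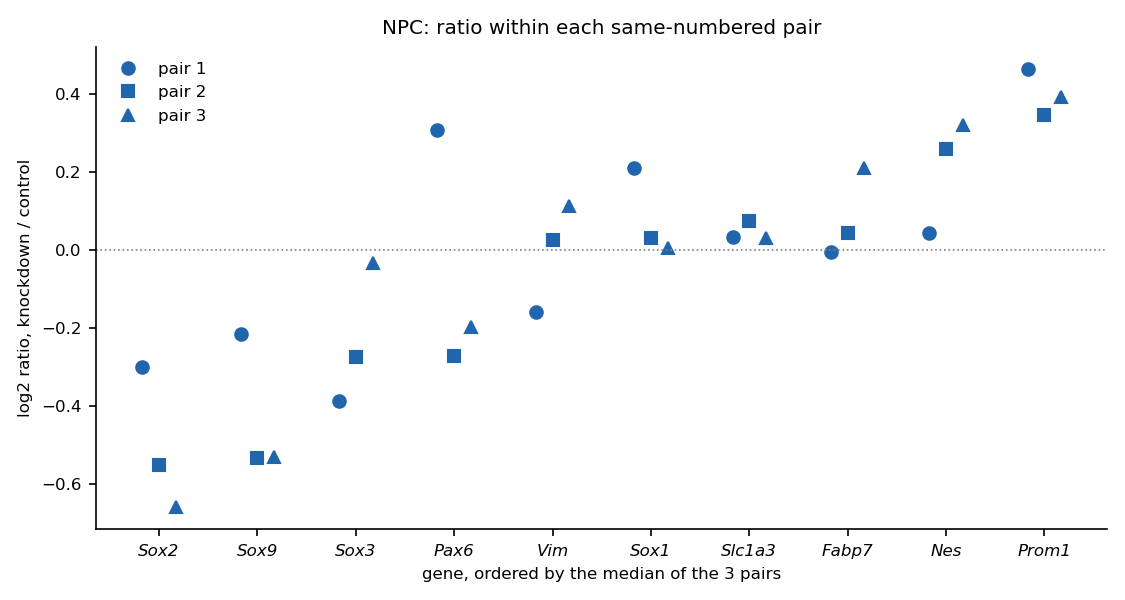
Log2 ratio of knockdown over control within each same-numbered NPC pair, for the 10 genes ordered by the median of the 3 pairs. Sox2, Sox9 and Sox3 are below 0 in every pair, Sox1, Slc1a3, Nes and Prom1 above 0 in every pair, and Pax6, Vim and Fabp7 lie on both sides.

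With pairs, 5 of the 10 genes were called, 2 higher and 3 lower, beside 24.7% of the 14258 genes tested, 11.9% higher and 12.8% lower. Without pairs 0 of the 10 were called by edgeR, beside 1.89% of all genes tested, with 1 at an unadjusted p under 0.05 (18.3% of all genes) and 1 called by DESeq2 (7.13% of all genes), Sox2 in both. DESeq2 with pairs called 4, all but Prom1 of the 5, beside 18.5% of all genes. The median paired log2 fold change of the 10 was 0.020, beside 0.0033 over all genes. Of the 10, 3 were lower in all 3 pairs and 4 higher in all 3 pairs, beside 26.6% and 27.2% of all genes. Leaving out a pair at a time left Sox2 called each time (-0.42 to -0.61) and Sox9 too (-0.37 to -0.53). Sox3 was lost without pair 2 (-0.21, adjusted p = 0.0895). Nes was lost without pair 2 (0.18, adjusted p = 0.266) and without pair 3 (0.16, adjusted p = 0.147), and Prom1 was lost without any 1 of the 3 pairs (0.37 to 0.43, adjusted p = 0.0627 to 0.0967). Such fits rest on 4 libraries. The 4 cycling-cell markers Mki67, Top2a, Ccnb1 and Cdk1 were all higher with pairs, by 0.44 to 0.53 on the log2 scale, and summed to 1258 to 2055 CPM in knockdown NPC and 841 to 1473 CPM in control NPC. Without pairs 0 of these 4 were called by edgeR (adjusted p = 0.264 to 0.396), nor was any marker of the other lists. Of 4 tested astrocyte markers 2 rose and 1 fell with pairs, summing to 156 to 267 CPM in knockdown NPC and 149 to 215 CPM in control NPC. Of 3 tested intermediate progenitor markers 1 rose with pairs, with sums of 119 to 174 CPM in knockdown NPC and 96.2 to 112 CPM in control NPC. The 5 oligodendrocyte precursor markers summed to 2948 to 2992 CPM in knockdown NPC and 2809 to 2841 CPM in control NPC, without overlap, and 1 of them, Pdgfra, fell with pairs (-0.58, adjusted p = 0.000977). Of 3 tested ependymal markers Foxj1 rose (0.63) and Ccdc153 fell (-0.76) with pairs, and the list summed to 27.9 to 49.0 CPM in knockdown NPC and 23.9 to 32.6 CPM in control NPC. The 5 microglial markers were near 0, at 0.763 to 1.57 CPM in knockdown NPC and 0.389 to 1.15 CPM in control NPC. The part of these markers in the changes of the 10 genes was not tested.

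In cortex labelled cKO, 0 of the 10 genes passed by edgeR or DESeq2, beside 0.171% of 15781 genes called by edgeR and 1.97% of all genes called by DESeq2, and 2 of the 10 had an unadjusted p under 0.05 (10.9% of all genes did). These were Fabp7 and Pax6. Fabp7 was at 687, 703 and 739 CPM in cKO cortex and at 878, 811 and 761 CPM in control cortex. It was the only one of the 10 whose cortex groups did not overlap, beside 17.3% of all genes (8.78% lower), with a log2 fold change of -0.20 and an SE of 0.073 (95% interval -0.37 to -0.041; adjusted p = 0.335). Pax6 was at 17.1, 14.3 and 19.2 CPM in cKO cortex and at 21.1, 24.7 and 18.1 CPM in control cortex, where cKO replicate 3 lay above control replicate 3 (-0.33, 95% interval -0.65 to -0.0078, adjusted p = 0.448). None of the markers on the 10 lists for other cell types and cycling cells passed in cortex. The 5 oligodendrocyte precursor markers, like Fabp7, did not overlap in their sum, at 213 to 219 CPM in cKO cortex and 239 to 254 CPM in control cortex. Their median log2 fold change was -0.21, with -0.21 for Olig1, -0.24 for Olig2 and -0.24 for Pdgfra, and none was at 0. Sox10 had -0.13, and Cspg4 went the other way with 0.057. Their part in the values of Fabp7 and Pax6 was not tested.

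The SOX genes overlapped between cKO and control cortex. Sox2 was at 73.1, 73.6 and 76.9 CPM in cKO cortex and at 74.2, 85.1 and 60.3 CPM in control cortex, a log2 fold change of 0.027 (95% interval -0.23 to 0.28). Sox9 was at 27.3, 24.9 and 24.6 CPM in cKO cortex and at 25.5, 36.4 and 19.3 CPM in control cortex. The highest value was the control rich in Ttr, while the cKO library rich in Ttr had the lowest value of the cKO group. The Sox9 log2 fold change was -0.081 with all libraries (95% interval -0.49 to 0.33) and 0.22 without the 2 libraries rich in Ttr, neither past the threshold. Sox1 was at 35.0, 31.1 and 34.9 CPM in cKO cortex and at 42.8, 40.4 and 32.7 CPM in control cortex (-0.20, 95% interval -0.45 to 0.050). Sox3 was low, with 174, 133 and 139 counts in cKO cortex and 192, 115 and 111 in control cortex, and the female library of the control group and the first of the 2 female cKO libraries held the highest values. With sex in the fit the Sox3 value was -0.012, against 0.12 without it, and neither passed.

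The filament and surface genes were close to level in cortex. Nes stood at 131 ± 2.33 CPM in cKO cortex and 135 ± 4.23 CPM in control cortex (-0.039, 95% interval -0.17 to 0.088). The paired NPC estimate for Nes, 0.21, lay above this range, but its own 95% interval (0.081 to 0.33) overlapped it. The difference between the NPC and the cortex effect did not pass for Nes (adjusted p = 0.340 by edgeR). Vim stood at 152 ± 8.36 CPM in cKO cortex and 155 ± 22.7 CPM in control cortex, Slc1a3 at 347 ± 20.3 CPM and 346 ± 20.3 CPM, and Prom1 at 20.7 ± 0.80 CPM and 19.4 ± 0.876 CPM (SD, n = 3 each). Their log2 fold changes were -0.025, 0.0047 and 0.094.

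**Figure D4:**
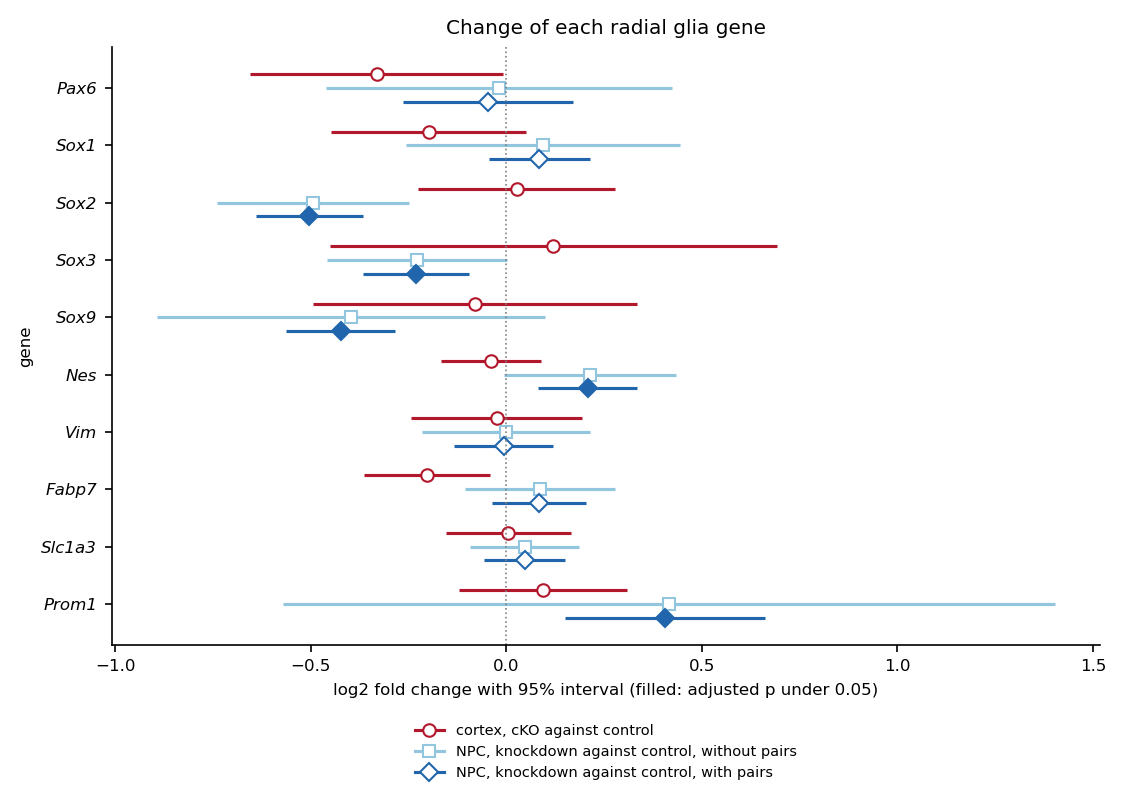
Log2 fold change of each gene with its 95% interval in cortex (cKO over control) and in NPC (knockdown over control) without and with pairs; filled symbols have an adjusted p under 0.05. Only the paired NPC fit has filled symbols, for Sox2, Sox3, Sox9, Nes and Prom1.

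The difference between the NPC and the cortex effect was tested in 1 fit of all 12 libraries, and 0 of the 10 genes passed by edgeR or DESeq2, beside 1.46% of 16569 genes called by edgeR and 5.06% by DESeq2. At an unadjusted p under 0.05 there were 3, Sox2 (-0.51, SE 0.17, adjusted p = 0.172), Fabp7 (0.30, SE 0.12, adjusted p = 0.258) and Nes (0.27, SE 0.12, adjusted p = 0.340), beside 14.2% of all genes. With the replicate numbers as a block Sox2 had -0.53 (adjusted p = 0.0824). A difference between culture and tissue in how the 10 genes responded is thus not shown.

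Further lists around the 10 genes were counted in paired NPC, where 11.9% of all genes tested rose and 12.8% fell; with lists this short the counts are descriptions beside those shares. Of 22 further radial glia genes 21 were tested, and 4 rose and 3 fell with pairs (median -0.0087, beside 0.0033 over all genes), with 0 called without pairs. Nr2e1, a nuclear receptor that maintains neural stem cells, was at 49.7, 38.3 and 45.1 CPM in knockdown NPC and at 37.3, 28.4 and 33.7 CPM in control NPC (0.42, adjusted p = 0.00021). Aldh1l1, a folate enzyme used as an astrocyte marker, rose by 0.41 and Tnc, which encodes the matrix protein tenascin-C, by 0.25. Hopx, known in human cortex as a marker of outer radial glia, was at 6.59, 5.15 and 6.96 CPM in knockdown NPC and at 13.8, 8.59 and 11.5 CPM in control NPC, a fall of 0.85 with pairs (adjusted p = 0.000179; without pairs adjusted p = 0.088). Pdpn, encoding the surface glycoprotein podoplanin, fell by 0.38 and Dbi, an acyl-CoA-binding protein, by 0.14 (adjusted p = 0.0499).

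Among 15 other SOX genes 10 were tested in NPC. Sox13, a SoxD factor, was at 23.0, 16.99 and 16.3 CPM in knockdown NPC and at 32.1, 32.1 and 30.3 CPM in control NPC, and fell with or without pairs (-0.75 without pairs, SE 0.14, adjusted p = 0.0454). With pairs Sox21, a SoxB2 factor that counteracts the SoxB1 group, fell by 0.33 (adjusted p = 0.00398), while Sox8 (0.27), Sox5 (0.21) and Sox12 (0.20) rose. Without pairs Sox13 was the 1 gene of this list called. The list's paired median was 0.048. Of 11 other intermediate filament and lamin genes 8 were tested. Synm, encoding synemin, fell by 0.74 and Gfap, the astrocyte filament, by 0.73 with pairs (adjusted p = 0.00104 and 0.0105), at 4.90 to 8.46 CPM and 2.30 to 4.63 CPM in knockdown NPC against 10.8 to 13.3 CPM and 3.59 to 6.76 CPM in control NPC. Lmnb1, the nuclear lamin B1, rose by 0.39 with pairs. Without pairs 0 of the 8 were called by edgeR, with adjusted p of 0.148 for Synm, 0.308 for Gfap and 0.366 for Lmnb1. The list's paired median was -0.094.

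Paralogs of Fabp7, Slc1a3, Prom1 and Pax6 numbered 16, of which 9 were tested in NPC (paired median -0.26). Slc1a4, a transporter of neutral amino acids, was at 166, 151 and 176 CPM in knockdown NPC and at 229, 218 and 238 CPM in control NPC, and fell also without pairs (-0.48, SE 0.075, adjusted p = 0.0269). Slc1a5, a glutamine transporter, rose by 0.59 with pairs and Fabp5, another fatty acid-binding protein, by 0.20, and neither was called without pairs. Of 14 apical adhesion and polarity genes 13 were tested (paired median 0.025), and Prkci, the atypical protein kinase C of the apical complex, rose by 0.17 with pairs (adjusted p = 0.0292; without pairs adjusted p = 0.236). In cortex 0 genes of these 5 lists were called. The smallest unadjusted p of each list there belonged to Mfge8 (-0.22), Sox12 (-0.13), Nefm (-0.44, adjusted p = 0.104), Fabp5 (-0.21) and Tjp1 (0.25).

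**Figure D5:**
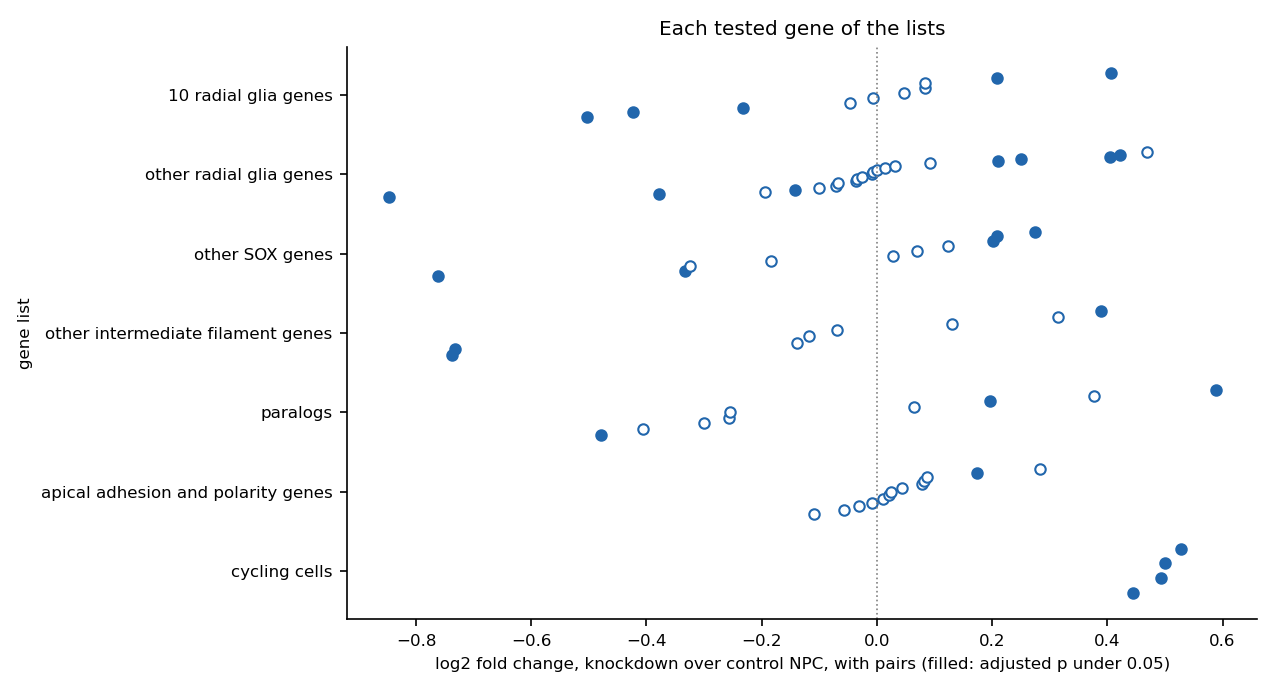
Paired log2 fold change in NPC of every tested gene of the 10 radial glia genes, of the 5 further lists and of the 4 cycling-cell markers, 1 point per gene; filled points have an adjusted p under 0.05. All lists except the adhesion and cycling-cell ones have called genes on both sides of 0.

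Over the 12 libraries, the profile of Pax6 was nearest to that of Brd8 (root mean square distance 0.14 on centred log2 CPM), then Parp2 (0.16) and H1f0 (0.16), among the 11705 genes averaging 5 CPM or more. Of the other 9 radial glia genes Sox1 was nearest to Pax6, at 0.21. Nes was nearest to Rpl36a (0.12), Rhoq (0.13) and Lfng (0.14), and of the radial glia genes to Vim, at 0.32. These distances are descriptions and are set mostly by the difference between the NPC and the cortex libraries.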

How the data were processed

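Bulk RNA-seq counts of 12 mouse libraries in 4 groups of 3 were used. Per the submitters' processing notes, reads were aligned with HISAT2 to mm10. Raw counts of each gene in each library make up the deposited table. The sources used here do not name the counting program, its annotation or its use of strand. Positions, lengths and 3′ UTRs came from GENCODE mouse release 21 (mm10), where 34065 of the 34102 identifiers were found.

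Genes were kept by filterByExpr and tested by edgeR 4.0.16 (R 4.3.3, quasi-likelihood) after TMM, cKO or knockdown over control on the 6 libraries of each system, and by contrasts in 1 fit of all 12 for the difference between systems and between controls. Log2 fold changes use the default prior count of 0.125. Adjusted p is Benjamini-Hochberg over all genes tested, called under 0.05. Group levels are CPM with TMM factors within a system, marker sums CPM of total counts, and RPKM uses the summed exon length and TMM over 12 libraries. The analysis without pairs is the main one. Same-numbered NPC libraries deviated together from their group means (correlation across genes of 0.48, 0.50 and 0.44), and cortex ones did not (0.022, -0.16 and -0.021), so NPC values are also given with the replicate number as a block. The labels do not say what the number marks. Replicates of a group differed by more than counting noise. Precision is limited by the spread between libraries.

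Male libraries had over 10 CPM of Ddx3y, and libraries over 1000 CPM of Ttr were called rich in Ttr. Alternatives were RLE factors, no filter, DESeq2 1.42.0, 1 fit of all libraries, sex, the block and leaving out libraries or pairs. RLE factors and no filter within the blocked fit were chosen after seeing the data. The 10 genes, the lists and the hexamers were chosen with earlier results of these data known. Named were the 10 genes; from each other list the genes called without pairs, the 3 largest changes in each direction among those called with pairs, and otherwise the gene of smallest p; and the 3 nearest profiles to Pax6 and Nes (log2 of CPM plus 0.5). Sox2ot, Gm16401, Gm25239, Map2, Ttr, Ddx3y and single markers of other cell types were named outside this rule.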

Additional observations from a re-analysis of the deposited data

How the results depend on the processing

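Without pairs, the count of called genes in cortex (27) was 156 with no count filter, 310 by DESeq2, 49 in 1 fit of all libraries, 12 with sex, 1 with the replicate block (same-numbered cortex libraries did not deviate together), and 0 to 28 leaving out 1 library (0 without cKO replicate 1, 1 without cKO replicate 3, 16 without cKO replicate 2); none of the 10 genes was called in any of these. In NPC (270) it was 957 by DESeq2, 654 in 1 fit of all libraries, 530 with sex, 3522 with the replicate block and 47 to 304 leaving out 1 library (47 to 95 without a control library, 69 without knockdown replicate 2, 176 without knockdown replicate 3). The number of the 10 genes called there without pairs (0) was 1, Sox2, with no count filter, by DESeq2 and in 1 fit of all libraries, 5 with the replicate block, and 0 to 1 leaving out 1 library. Leaving out a pair from the blocked fit (3522 genes, 5 of the 10) gave 4376 genes and 6 of the 10 without pair 1 (Pax6 and Fabp7 gained, Prom1 lost), 2170 genes and 2 of the 10 without pair 2, and 1636 genes and 3 of the 10 without pair 3. For the difference between systems (242 genes, 0 of the 10), DESeq2 called 715, the replicate block 604, and leaving out 1 library gave 98 to 275 genes and 0 to 1 of the 10 (Sox2, without knockdown replicate 1). The 9 calls between control NPC and control cortex held under every alternative, and Pax6 joined them without knockdown NPC replicate 1 (0.33, adjusted p = 0.034).

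Signs changed only for values not called in the fit that was varied. In NPC, Prom1, which changed sign without pairs, was called with pairs. Pax6, which changed sign in the blocked fit without pair 2 or pair 3, was called in it without pair 1. In cortex with sex Sox3 had -0.012 and Slc1a3 -0.019, and Sox9 had 0.22 without the libraries rich in Ttr. In NPC without pairs Vim had 0.0013 with RLE factors, 5.1e-05 with no count filter, 0.00061 by DESeq2 and 0.0092 in 1 fit of all libraries. With the replicate block Vim had 0.069 without pair 1, and Pax6 had 0.062 without pair 2 and 0.029 without pair 3. Leaving out 1 library gave in cortex -0.099 to 0.15 for Sox2, -0.054 to 0.39 for Sox3, -0.28 to 0.19 for Sox9, -0.14 to 0.053 for Vim and -0.039 to 0.053 for Slc1a3. In NPC without pairs it gave -0.28 to 0.11 for Pax6, -0.078 to 0.19 for Sox1, -0.084 to 0.073 for Vim and -0.082 to 0.87 for Prom1. For the difference between systems it gave -0.066 to 0.15 for Vim, -0.010 to 0.092 for Slc1a3 and -0.16 to 0.78 for Prom1. The causes were not tested. Taking the longest transcript as length moved Vim above Sox2 and Pax6 above Prom1 and Sox3 in control cortex and left the order in control NPC as it was.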
